A study of Mus musculus with 4 samples.

Results

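The comparison described here is that of mouse intestinal organoids treated with 4-hydroxytamoxifen (4OHT) against untreated organoids, both collected at day 4, and it uses 2 of the 4 arrays of the series. Both cultures carried floxed Apc alleles (Apc fl/fl), and the labels call the treated one Apc-deficient. The treated organoids were exposed to 4OHT for 24 h, which the design states was done to recombine Apc. The labels do not name the 4OHT-dependent recombinase or the promoter that drives it, nor the age, sex or strain of the animals or the segment of intestine. None of the 4 arrays is of 4OHT-treated organoids without the floxed alleles, so an effect of the drug and an effect of losing Apc cannot be told apart. Each group is 1 array, so no difference has a replicate check and no p-value is given; precision is limited by the number of arrays.

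Organoids of this kind are epithelial cultures grown in Matrigel in which stem cells, Paneth cells and differentiated cells coexist. Apc is a scaffold of the cytoplasmic complex that marks beta-catenin for degradation. When the complex fails, beta-catenin enters the nucleus and acts with TCF factors on Wnt target genes, which in the intestine hold cells in the crypt program. Away from the crypt, Wnt signalling declines and absorptive enterocytes switch on genes for digestion, uptake and detoxification.

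All values are probe-set intensities, and a difference is the log2(intensity + 16) of the 4OHT array minus that of the untreated array, so 1 is a 2-fold difference and the folds of dim genes are understated. A gene was represented by its brightest probe set among those naming 1 gene. Of 18193 genes, 13192 passed a level filter, an intensity of at least 20.9 on at least 1 of the 4 arrays. The median intensity of all probe sets was 21.96 on the untreated and 21.93 on the 4OHT array. All 12 measured markers of intestinal epithelium (such as Epcam, Cdh1, Vil1 and Cdx2) passed the filter, and they summed to an intensity of 21845 without and 24465 with 4OHT. The 11 measured fibroblast and muscle markers summed to 294 and 302, between 8.78 and 59.4 each, and the 5 endothelial markers to 102.0 and 92.6. The 10 immune markers summed to 1491 and 2329, of which Lyz2, a lysozyme gene with a close copy expressed by Paneth cells, gave 1184 and 2046. The other 9 summed to 307 and 284. No marker was listed at 0.

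The control probe sets read each control transcript near its 3' end, its middle and its 5' end, and labelling here started at the poly-A tail. For Actb the intensity at the 3' end was 10988 untreated and 13343 with 4OHT, a difference of 0.28, in the middle 2206 and 2213 (0.0047), and at the 5' end 1411 and 891 (-0.66). For Gapdh the 3' end read 2605 and 2003 (-0.38), the middle 1252 and 620 (-1.01), and the 5' end 973 and 408 (-1.25). The 3' to 5' ratio was thus 7.79 untreated against 14.98 with 4OHT for Actb, and 2.68 against 4.90 for Gapdh. For 3 other controls the log2 ratio of 3' to 5' moved by -0.19 for 18S rRNA, -0.05 for the dim Pcx and -0.33 for the dim Tfrc. The 18S rRNA was brighter at its 5' end on both arrays (3' to 5' ratio 0.17 untreated and 0.15 with 4OHT). The 5' end of Tfrc read 5.54 and 5.28, under the filter's intensity. Neither of these could therefore show a steeper drop from the 3' end. By their ratios, the signal of Actb and Gapdh dropped more steeply away from the 3' end on the 4OHT array than on the untreated one. Whether this affects the differences of genes whose probe sets lie far from the 3' end was not tested. All 24 poly-A spike-in probe sets were dimmer on the 4OHT array, by a mean of -0.45 (range -0.61 to -0.27), as were all 18 hybridization spike-ins (mean -0.35, range -0.47 to -0.15). A difference between 0 and about that size below 0 would change its sign if the arrays were set equal on the spike-ins.

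**Figure D1:**
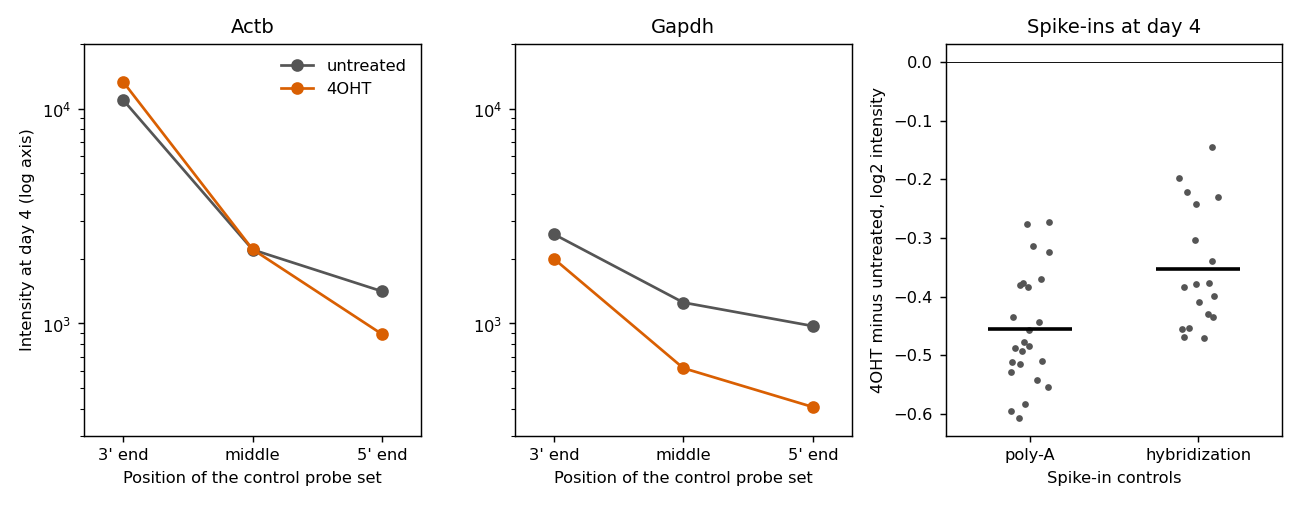
Left and middle, intensity (log axis) of the Actb and Gapdh control probe sets at the 3' end, middle and 5' end on the untreated (grey) and 4OHT (orange) arrays of day 4; right, difference of each spike-in probe set on the log2 intensity scale, points being probe sets and bars their mean. The lines spread apart toward the 5' end, where the differences are -0.66 for Actb and -1.25 for Gapdh, and all spike-in probe sets lie below 0.

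The 4 probe sets that read Apc itself did not differ in 1 direction. The brightest over the 4 arrays read 27.2 untreated and 57.7 with 4OHT (a difference of 0.77), the one brightest at day 4 read 80.4 and 83.9 (0.05), another read 49.7 and 33.9 (-0.40), and the last, under the level filter, 8.49 and 16.7 (0.42). The files do not say whether any of them lies in the floxed part of the gene, so they do not check the labels.

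Across the 13192 genes the median difference was 0.06 and the SD 0.41, and 56.7% of genes lay above 0. At least 2-fold higher with 4OHT were 132 genes (1.0% of those compared), and at least 2-fold lower were 161 (1.22%). Together these were 293 genes, or 2.22%. These shares, with the 56.7% above 0, are the background for the list counts below. Among the 3298 genes of highest level 1.61% were lower and 1.06% higher, and among the 3298 of lowest level 0.515% and 0.394%. Setting the arrays equal on the poly-A spike-ins gave 954 higher and 52 lower with an all-gene median of 0.43, the hybridization spike-ins gave 637 and 62 with a median of 0.34, and subtracting the all-gene median gave 99 and 188. The division into higher and lower thus depends on the scaling. Of the 22 lists with a median below 0 over all measured members, 15 had one above 0 on the poly-A and 13 on the hybridization spike-ins. Of the genes named below, Rnf43 (0.97) and Aqp1 (0.96) came under 2-fold after quantile normalization, and Ang4 (0.96), Aqp1 (0.98), Jag1 (0.97) and Rnf43 (0.99) after subtracting the all-gene median.

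**Figure D2:**
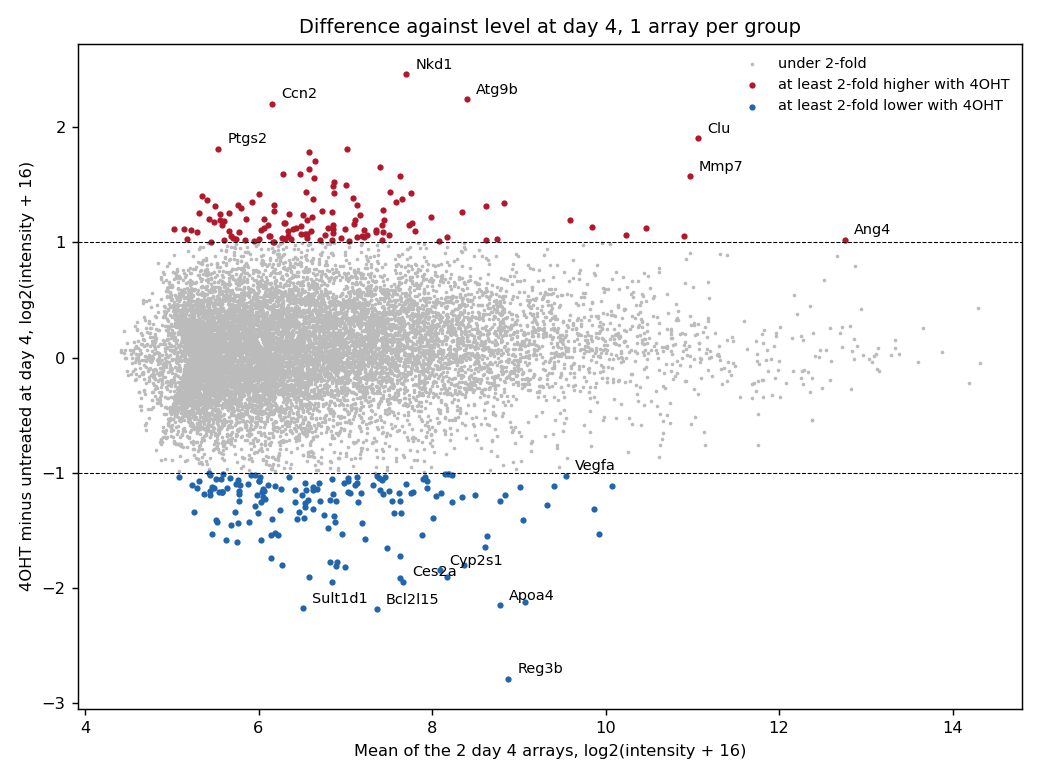
Difference (4OHT minus untreated, log2(intensity + 16)) against the mean level of the day 4 arrays on the same scale for the 13192 genes past the level filter; dashed lines mark 2-fold. The 132 genes at least 2-fold higher are red and the 161 at least 2-fold lower blue and both occur over most of the range of levels; Nkd1 is highest at 2.46 and Reg3b lowest at -2.79.

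The largest difference upward was that of Nkd1, a Wnt-induced antagonist of Dishevelled, which read 72.9 untreated and 473 with 4OHT (2.46). A second Nkd1 probe set past the filter went the other way, from 46.7 to 33.7 (-0.34). Atg9b, an autophagy transmembrane protein, followed (140.1 to 723, 2.24), then Ccn2, a matricellular protein and YAP target (17.3 to 137, 2.20). Clu, a secreted chaperone that marks regenerating intestinal epithelium, read 1093 to 4132 (1.90), and its other 3 probe sets differed by 1.79, 1.88 and 2.05. Ptgs2, the inducible prostaglandin synthase, was under the filter's intensity in the untreated culture (8.71 to 70.9, 1.81). Next came the RNA-binding protein gene Rbms3 (1.81), Fn1 for fibronectin (1.79, with -0.20 on its other probe set), Zmpste24 for a prelamin A protease (1.70), Thbs1 for thrombospondin (1.66) and Msln for mesothelin (1.64). The remaining 5 of the 15 were Rassf10 (1.59; its other probe sets 0.14 and -0.30), the PI3-kinase regulatory subunit gene Pik3r3 (1.59), the matrix protease gene Mmp7 (1.58), the antiviral membrane protein gene Ifitm3 (1.57) and the potassium channel subunit gene Lrrc26 (1.56).

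The largest difference downward was that of Reg3b, a secreted antibacterial lectin, which read 1219 untreated and 163 with 4OHT (-2.79; -2.35 on its other probe set). Bcl2l15, a Bcl2 family member of the gut, read 335 to 61.3 (-2.18). Enzyme genes among the rest were the sulfotransferase gene Sult1d1 (178 to 27.1, -2.17), the dehydrogenase gene Adh6a (-1.95), the carboxylesterase gene Ces2a (383 to 87.8, -1.94), the cytochrome P450 genes Cyp2s1 (-1.84) and Cyp4f14 (-1.80), the gluconeogenic enzyme gene Fbp1 (-1.82), the peroxisomal thiolase gene Acaa1b (-1.81) and the brush border peptidase gene Enpep (-1.77). Apoa4, an apolipoprotein of chylomicrons, read 909 to 193 (-2.15). The others were the lectin-like gene Clec2h (-1.91), the mucosal scavenger protein gene Dmbt1 (-1.90), the goblet cell lectin gene Zg16 (-1.80) and the myosin light chain gene Myl7 (-1.77).

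**Figure D3:**
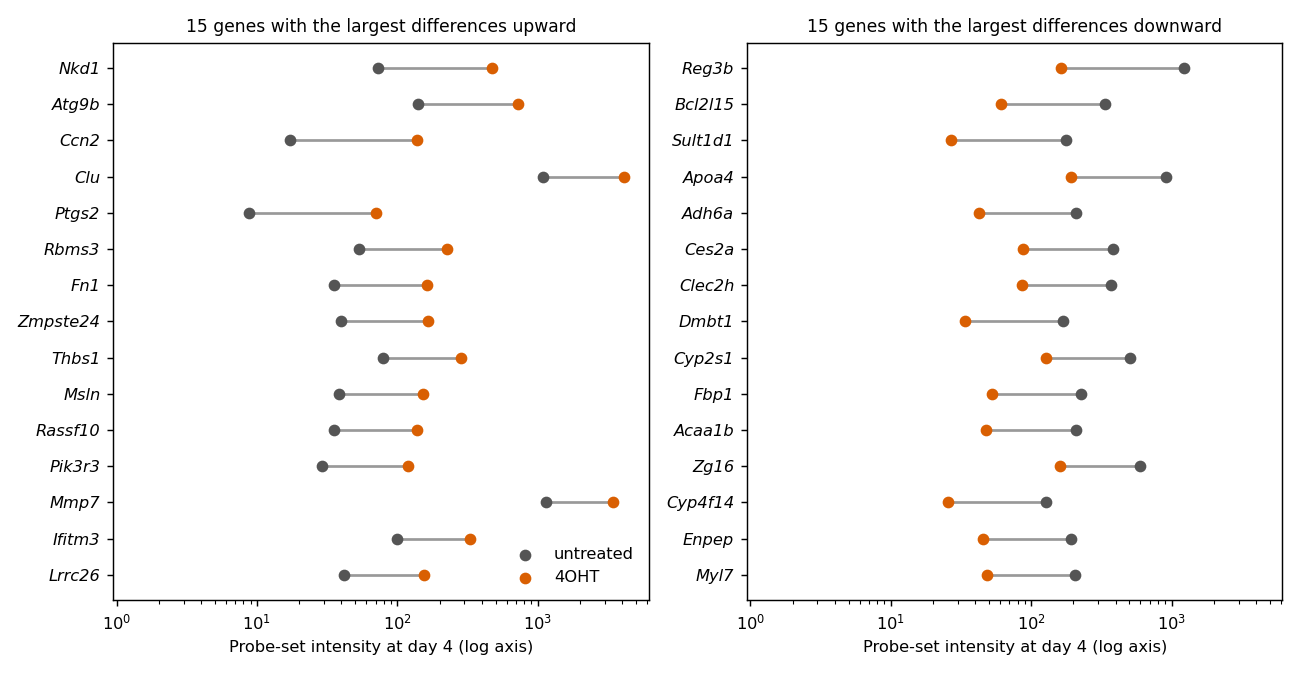
Intensity (log axis) on the untreated (grey) and 4OHT (orange) arrays of day 4 for the 15 genes with the largest differences upward (left) and downward (right), 1 array per group. Nkd1 reads 72.9 and 473, Clu 1093 and 4132, and Reg3b 1219 and 163; Ptgs2 and Ccn2 start from intensities under the level filter.

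Of the 24 Wnt target genes past the filter, 21 lay above 0 and 3 below, with a median of 0.45. Of all genes, 56.7% lay above 0. Over all 28 measured the median was 0.37, or 0.21 with the mean of all probe sets in place of the brightest. At least 2-fold higher were 4, against 1.0% of all genes, and none was 2-fold lower. These were Nkd1; Mmp7, which in Paneth cells also activates defensins (1146 to 3449, 1.58); Cd44, an adhesion receptor of crypt cells (60.7 to 201, 1.503; other probe sets 1.36 and 0.45); and Rnf43, whose ubiquitin ligase clears Frizzled receptors from the cell surface (81.9 to 186, 1.05). Axin2, Lgr5, Notum, Myc and Kremen1 lie outside the naming rule and were chosen after their values were seen. The feedback gene Axin2 read 89.5 to 163 (0.76), the cyclin gene Ccnd1 1067 to 1786 (0.73), the stem cell receptor gene Lgr5 254 to 313 (0.29) and Notum, a secreted Wnt deacylase, 57.6 to 75.02 (0.31). Myc, a classical beta-catenin target, was lower, at 122 to 81.2 (-0.51), as was Kremen1 (-0.64). Axin2, Lgr5 and Myc, often used as readouts of the pathway, thus stayed within 2-fold.

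The motif CTTTGAT, to which TCF factors bind, was searched on both strands of the 300 bases around the start of each gene (250 before and 50 after) in the RefSeq promoter table on GRCm38.p6. It occurs in 4.29% of the 27025 genes there and in 3.73% of the 32851 promoters. Of 18 Wnt targets in the table it occurs in 4 (Sp5, Tnfrsf19, Mmp7 and Tiam1), and of the 4 genes past 2-fold only in Mmp7. That promoter, chr9:7691840-7692139 on the plus strand, is shown because it is the 1 among the genes past 2-fold that holds the motif; the capitals mark the motif, here on the opposite strand.
Mmp7: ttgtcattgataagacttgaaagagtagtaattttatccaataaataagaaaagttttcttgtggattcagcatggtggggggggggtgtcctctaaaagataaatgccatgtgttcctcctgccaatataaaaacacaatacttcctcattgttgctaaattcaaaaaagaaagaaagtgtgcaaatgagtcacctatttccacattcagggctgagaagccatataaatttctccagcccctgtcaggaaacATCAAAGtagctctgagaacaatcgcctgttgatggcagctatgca
A match is a description of these letters only.

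Genes that build the pathway itself stayed within 2-fold. Of the 20 members of the destruction complex, receptor and TCF list, 13 lay above 0 and the median was 0.11. Ctnnb1, which encodes beta-catenin, read 1321 to 914 (-0.52), the receptor gene Fzd5 59.6 to 25.5 (-0.86; 0.04 on its other probe set), and Apc's largest value was the 0.77 given above.

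Markers of the crypt base columnar stem cells had a median of 0.37, with 13 of 14 above 0 and none 2-fold higher. Above the all-gene median of 0.06 were 11 of them. Tnfrsf19 read 22.7 to 55.7 (0.89, and 0.19 on its other probe set past the filter). Smoc2, for a secreted matrix protein, read 131 to 242 (0.81). The other Smoc2 probe set, brighter at day 4, read 587 to 724 (0.29). Msi1, for an RNA-binding protein, read 38.1 to 77.6 (0.79, and 0.30 and 0.21 on its other probe sets). Aqp4, a water channel gene, was the exception at 149.9 to 64.04 (-1.05), although its other probe sets past the filter read -0.0033 and 0.24. Olfm4, a secreted marker of these cells named after its value was seen, was level at 833 to 839 (0.01).

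Genes of fetal and regenerating epithelium had a median of 0.90 over the 8 past the filter, with 7 above 0 and 3 at least 2-fold higher. Of all genes, 56.7% lay above 0 and 1.0% were 2-fold higher. Over all 11 measured the median was 0.43, below that of the Paneth cell markers (0.75). The 3 were Ccn2, Clu and Msln, for a surface glycoprotein (38.2 to 153). S100a6, for a calcium-binding protein, read 739 to 1483 (0.99), just under 2-fold. Il1rn, the interleukin-1 receptor antagonist, named after its value was seen, went the other way (137 to 79.9, -0.67). On the overlapping list of YAP and TEAD genes, 13 of 15 lay above 0 and 3 were 2-fold higher: Ccn2, Thbs1 (78.8 to 283; 0.14 on its other probe set) and Ajuba, a LIM-domain scaffold (23.3 to 89.1, 1.42). Ankrd1, another gene of this list, read 13.6 to 34.3 (0.77), and the list's median was 0.32. Among 16 genes of matrix, integrins and proteases the median was 0.43, with Timp2, a protease inhibitor, at 75.1 to 193 (1.19; other probe sets 1.07, 0.54 and -0.07), the integrin gene Itgav at 94.3 to 196 (0.94) and the laminin gene Lamb3 at 67.6 to 141 (0.91).

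Genes of enterocyte function were lower as a group. The 5 lists for lipid absorption, sugar handling, brush border enzymes, microvillus structure and detoxification hold 74 different genes past the filter. At least 2-fold lower were 28 of them (37.8%, against 1.22% of all genes) and none was 2-fold higher, with 66 below 0 and a median of -0.77. With arrays set equal on the poly-A spike-ins, 16 were 2-fold lower (21.6%, against 0.394% of all genes) and 1 was 2-fold higher, the microvillus motor gene Myo7b (287 to 441 as deposited), named after its value was seen. On the hybridization spike-ins 16 were 2-fold lower and none higher. The lists were drawn up with earlier results of these arrays known, so the counts are a description. In bulk RNA, fewer enterocytes and less RNA per enterocyte cannot be told apart.

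Drug and xenobiotic metabolism had the lowest median, -1.06, with 11 of 20 genes at least 2-fold lower and 19 below 0. Beside Sult1d1, Adh6a, Ces2a, Cyp2s1 and Cyp4f14 above, these were the P450 genes Cyp3a11 (97.3 to 21.8, -1.58), Cyp2c65 (-1.34), Cyp3a13 (-1.09) and Cyp3a25 (-1.04), the esterase gene Ces2e (-1.29) and the sulfotransferase gene Sult1b1 (236 to 97.54, -1.15). The Cyp2, Cyp3 and Ces2 families hold near-identical copies, whose probe sets may read more than 1 gene. Gstm1, a glutathione transferase gene named after its value was seen, was the single member above 0 (131 to 171, 0.35).

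In sugar handling, 5 of 10 genes were at least 2-fold lower and 9 lay below 0 (median -1.02). Fbp1 of gluconeogenesis read 225 to 52.2. Slc2a2, the basolateral glucose and fructose transporter, read 44.9 to 8.05 (-1.34), under the filter's intensity with 4OHT. Khk, which phosphorylates fructose, read 244 to 98.4 (-1.18). Slc5a1, the apical sodium-glucose cotransporter, read 347 to 149 (-1.13; -1.28 on its other probe set), and Mgam, a brush border glucosidase, 985 to 446 (-1.12). Genes of digestion, uptake and metabolism of sugar are all among these 5.

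Among 18 lipid absorption genes, 5 were at least 2-fold lower, and the median was -0.51 (-0.44 over all 19 measured). The apolipoprotein genes Apoa4, Apoc3 (387 to 123, -1.53) and Apoa1 (1459 to 579, -1.31) were lower on each of their probe sets, Apoa1 on 4 of 4. Fabp1, a cytosolic fatty acid carrier, read 104 to 31.9 (-1.33), and Mttp, which loads lipid onto apolipoprotein B, 55.6 to 15.9 (-1.16; -0.28 on its other probe set). Choosing probe sets from the day 4 arrays alone takes that other set for Mttp, which is then not 2-fold lower. Apob itself, named after its value was seen, was level at 192 to 206 (0.10), so not all apolipoprotein genes were lower.

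Of 12 brush border peptidase and phosphatase genes, 4 were 2-fold lower: Enpep (193 to 45.1), the alkaline phosphatase gene Alpi (132 to 50.7, -1.15), the meprin gene Mep1b (218 to 92.7, -1.11) and Naaladl1 (225 to 101, -1.05). The list median was -0.49. Of 14 microvillus genes, 3 were 2-fold lower (median -0.40): Mall, a membrane trafficking protein (243 to 71.1, -1.57), Krt20, a keratin of differentiated cells (664 to 216, -1.55), and Espn, an actin bundler (76.4 to 29.1, -1.03). The brush border motor gene Myo1a read 606 to 310.4 (-0.93). Vil1 for villin, named after its value was seen, differed less (852 to 721, -0.24).

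Over all measured members, the medians of these 5 lists stayed below 0 on the poly-A spike-ins, the scaling that raised all values most. They were nearly at 0 for lipid absorption (-0.05) and microvillus structure (-0.04). Relative to the all-gene median under that scaling they were -0.48 and -0.47, against -0.50 and -0.47 with the values as deposited. Brush border enzymes gave -0.15, sugar handling -0.68 and drug metabolism -0.73. Using the mean of all probe sets in place of the brightest gave -0.17 for brush border enzymes and -0.25 for lipid absorption. With the probe sets chosen from the day 4 arrays alone, lipid absorption also gave -0.25.

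Of 13 transcription factors of enterocytes past the filter 1 was 2-fold lower, and the median was -0.15 (-0.08 over all measured, and 0.25 on the poly-A spike-ins). That gene was Nr1h4, the bile acid receptor (84.8 to 26.3, -1.25). The transcription factor genes Maf (96.1 to 53.4, -0.69; other probe sets past the filter from -0.25 to 0.43) and Hnf4g (78.6 to 46.7, -0.59) were lower by less. Cdx2 and Hnf4a, master regulators of intestinal identity named after their values were seen, were level (456 to 448 and 2346 to 2362). In ion and water transport, 2 of 16 genes were 2-fold lower and 1 higher. Clca4a, a calcium-activated chloride channel regulator (59.6 to 12.1, -1.43), and Slc26a3, the chloride-bicarbonate exchanger (68.2 to 17.2, -1.34; -0.55 and -0.32 on other probe sets), were lower. Aqp1, a water channel gene, was higher (185 to 399, 1.05).

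**Figure D4:**
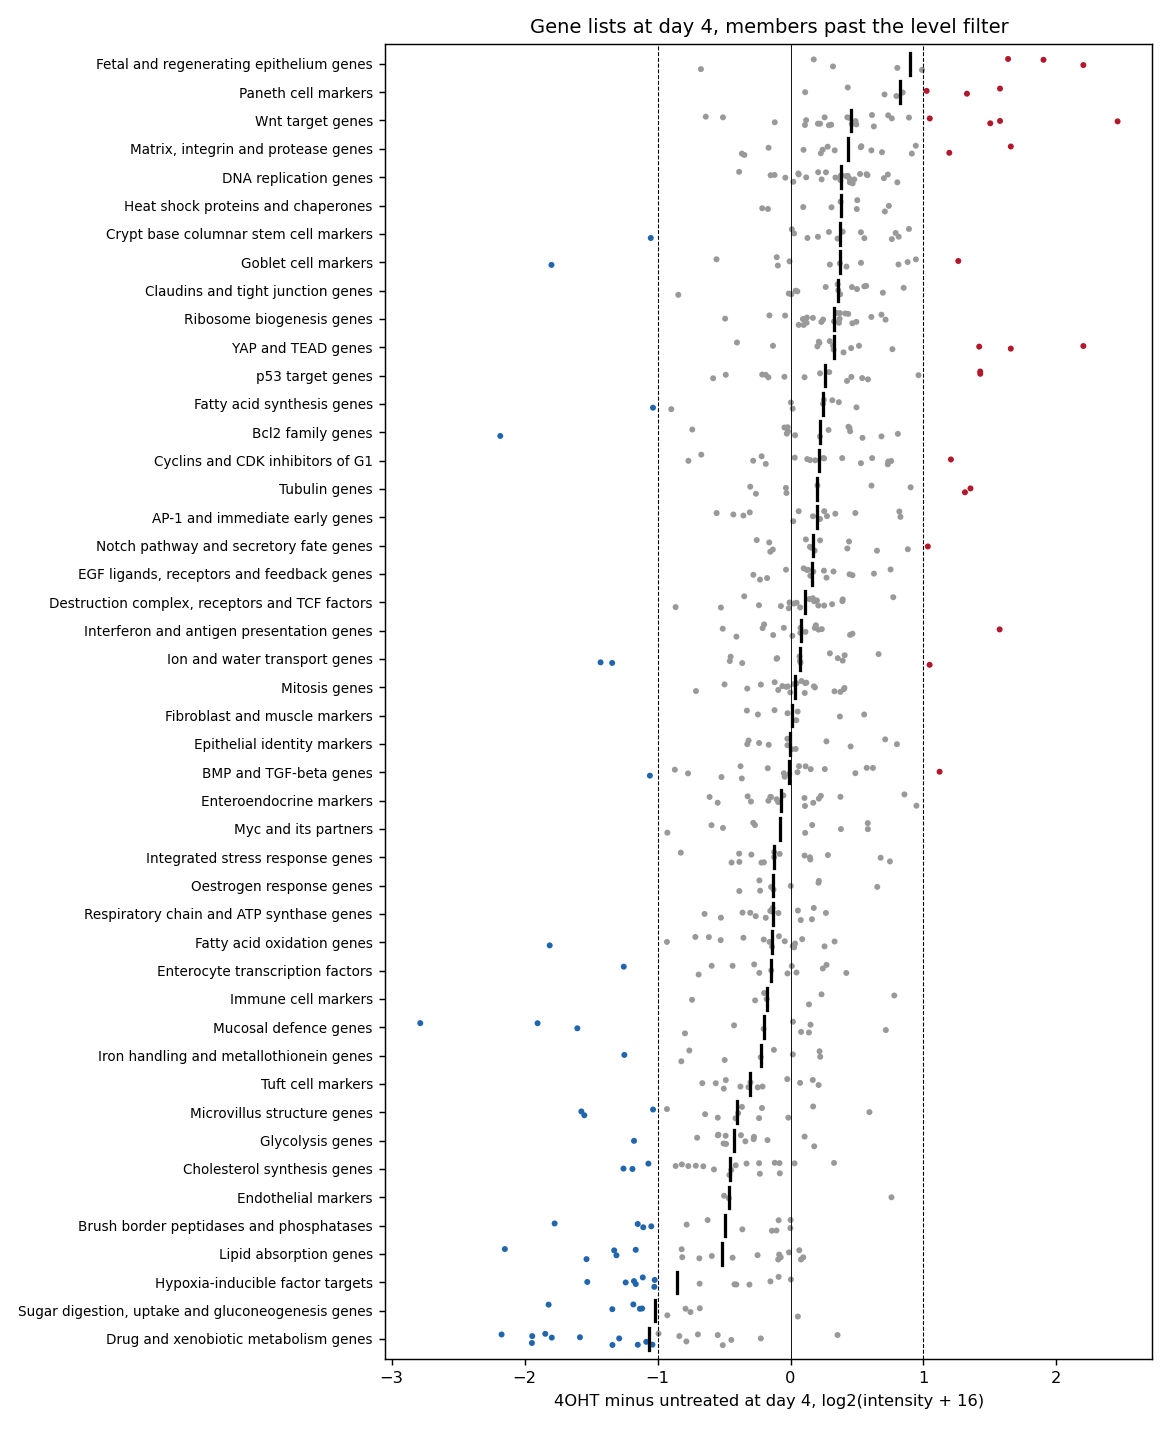
Difference (4OHT minus untreated at day 4, log2(intensity + 16)) of each member past the level filter in the 46 gene lists, ordered by list median (black bars); dashed lines mark 2-fold, red points are at least 2-fold higher and blue points at least 2-fold lower. The lowest medians are those of drug metabolism, sugar handling and hypoxia-inducible factor targets, and the highest, over these members, those of fetal and regenerating epithelium, Paneth cell markers and Wnt targets; points within a list are spread vertically for visibility only.

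Genes induced by hypoxia-inducible factors, transcription factors that accumulate when oxygen is low, formed another lower group. Of 14, 7 were at least 2-fold lower, against 1.22% of all genes, and none was 2-fold higher. Below 0 were 13 of them, where 56.7% of all genes lay above 0, and the median was -0.85. The lowest was Ankrd37, an ankyrin repeat gene (197 to 57.7, -1.53). Egln3, a prolyl hydroxylase that marks the factors for degradation, read 659 to 269.7 (-1.24; -1.15 on its other probe set). Ero1a, for an oxidase of the endoplasmic reticulum, read 279.6 to 115 (-1.18; other probe sets -0.59 and -1.33). Pdk1, which restrains pyruvate entry into mitochondria, read 312 to 130.5 (-1.16), but its other 3 probe sets read -0.78, 0.0039 and 0.52. Ndrg1, a stress-induced gene, was lower on all 5 of its probe sets (1573 to 719.6 on the brightest, -1.11). The angiogenic factor gene Vegfa (1047 to 507, -1.02; -0.81 on its other probe set) and the mitophagy receptor gene Bnip3 (414 to 196, -1.02) were just past 2-fold. Over all 15 measured members the median was -0.68, and -0.31 with arrays set equal on the poly-A spike-ins, where 1 gene stayed past 2-fold. With the mean of all probe sets the median was -0.41. Averaging their probe sets took Pdk1 (-0.35) and Vegfa (-0.92) under 2-fold, so these calls depend on the probe set.

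Hypoxia-inducible factors bind a core of ACGTG, which also lies inside the E-box CACGTG read by other factors. Searched on both strands of the same 300 bases, ACGTG occurs in 21.8% of genes in the table and in 19.6% of promoters. It occurs in 11 of 14 genes of the list with an entry (78.6%). Of the 6 at least 2-fold lower with an entry it occurs in 5, all but Pdk1. The promoters of 4 of these are shown with the motif in capitals, because they are the list's lower members whose single listed promoter holds it. They are Bnip3 (chr7:138909457-138909756), Ankrd37 (chr8:45999801-46000100), Egln3 (chr12:54203825-54204124) and Ero1a (chr14:45318523-45318822), all on the minus strand of GRCm38.p6 and from RefSeq.
Bnip3: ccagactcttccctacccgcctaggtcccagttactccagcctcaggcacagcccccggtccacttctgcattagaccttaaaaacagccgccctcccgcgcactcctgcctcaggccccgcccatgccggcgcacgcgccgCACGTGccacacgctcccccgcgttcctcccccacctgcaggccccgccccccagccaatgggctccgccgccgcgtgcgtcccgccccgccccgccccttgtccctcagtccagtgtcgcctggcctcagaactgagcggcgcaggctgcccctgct
Ankrd37: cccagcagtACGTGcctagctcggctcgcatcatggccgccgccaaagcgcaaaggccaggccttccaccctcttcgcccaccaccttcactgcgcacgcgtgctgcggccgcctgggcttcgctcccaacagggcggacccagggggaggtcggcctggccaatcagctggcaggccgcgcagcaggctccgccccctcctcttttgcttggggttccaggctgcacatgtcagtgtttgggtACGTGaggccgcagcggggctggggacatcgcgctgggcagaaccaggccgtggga
Egln3: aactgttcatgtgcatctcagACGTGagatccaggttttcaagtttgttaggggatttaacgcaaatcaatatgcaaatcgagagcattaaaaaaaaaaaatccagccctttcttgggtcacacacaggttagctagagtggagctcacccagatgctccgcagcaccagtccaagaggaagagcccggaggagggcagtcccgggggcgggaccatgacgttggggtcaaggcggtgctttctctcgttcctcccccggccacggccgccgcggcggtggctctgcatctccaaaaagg
Ero1a: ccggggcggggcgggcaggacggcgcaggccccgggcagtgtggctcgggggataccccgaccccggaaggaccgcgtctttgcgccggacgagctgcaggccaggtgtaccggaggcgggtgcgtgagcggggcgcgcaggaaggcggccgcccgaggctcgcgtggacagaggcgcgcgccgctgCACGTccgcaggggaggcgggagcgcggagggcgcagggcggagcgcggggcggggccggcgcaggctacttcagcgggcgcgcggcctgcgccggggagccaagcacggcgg
In Bnip3 the match is the palindrome CACGTG, read once on each strand, and Ankrd37 holds 2 separate matches. In Ero1a the match is on the opposite strand. How these promoters were bound was not measured.

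Glycolysis genes, many of which the same factors induce, were lower by less: 12 of 14 lay below 0 with a median of -0.43, and 1 was 2-fold lower. Pfkp, a phosphofructokinase gene, read 399 to 167 (-1.18; -0.81 on its other probe set past the filter). Ldha, which makes lactate, read 2032 to 1242 (-0.70) and Aldoa, an aldolase gene, 1946 to 1327 (-0.55). The Gapdh control probe sets, which read another enzyme of the pathway, differed from -0.38 at the 3' end to -1.25 at the 5' end, so the size of such differences varied with position along that transcript. Over all 15 measured members the median was -0.37, and 0.05 with arrays set equal on the poly-A spike-ins, a change of sign.

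Cholesterol synthesis genes lay almost uniformly below 0, 18 of 20 with a median of -0.45, and 3 were at least 2-fold lower. They were Fdps, which makes farnesyl pyrophosphate (447 to 178, -1.26), Idi1, the isomerase before it (677 to 288, -1.19; -1.26 on its other probe set), and Msmo1, a sterol oxidase (174 to 74.5, -1.07; -0.50 on its other probe set). Lss, lanosterol synthase, read 207 to 107 (-0.86; other probe sets -1.01 and 0.45). The enzyme that starts the committed pathway, Hmgcs1, was close to level (2851 to 2624, -0.12; named after its value was seen). With arrays set equal on the poly-A spike-ins the median was -0.07 and none stayed past 2-fold. Fatty acid synthesis differed in direction: the median of 9 genes was 0.24, although Scd1, a desaturase gene (186 to 82.4, -1.03; -0.26 on its other probe set), and Acss2, which makes acetyl-CoA from acetate (696 to 366, -0.90; other probe sets -1.21 and 0.11), were lower. That median was -0.04 with the mean of all probe sets, so its direction depends on the probe sets used.

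Among 17 fatty acid oxidation genes the median was -0.14 and 1 was 2-fold lower, Acaa1b (207 to 47.6); the electron transfer gene Etfdh read 80.3 to 34.5 (-0.93) and the acyl-CoA dehydrogenase gene Acadm 277 to 162 (-0.72). The 15 respiratory chain and ATP synthase genes were within 2-fold, from -0.65 for Atp5b to 0.27 for Cox4i1 (named after its value was seen), with a median of -0.14. In iron handling Slc40a1, the exporter ferroportin, read 202 to 75.6 (-1.25), with -0.03 on its other probe set, and the metallothionein genes Mt1 (4483 to 2639, -0.76) and Mt2 (1609 to 904, -0.82) were lower; the list median was -0.22. Over all measured members the medians of these 3 lists were -0.15, -0.14 and -0.22. They turned positive with arrays set equal on either kind of spike-in (0.26, 0.31 and 0.13 on the poly-A set).

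Mucosal defence genes divided. Reg3b and its relatives Reg3a (77.8 to 14.9, -1.60) and Reg3g (74.1 to 35.96, -0.79) were lower, as was Dmbt1 (169 to 33.5). The probe sets of the Reg3 genes may cross-read, which was not tested. The other 7 of the 11 lay between -0.42 for Duoxa2 and 0.72 for the receptor gene Tlr2 (both named after their values were seen). The list median was -0.20 with 3 of 11 at least 2-fold lower. Over all measured members the median was -0.01, and 0.26 with arrays set equal on the poly-A spike-ins.

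Markers of secretory cells differed by lineage. All 8 Paneth cell markers past the filter lay above 0, with a median of 0.82. At least 2-fold higher were 3 of them, against 1.0% of all genes. None of the 8 is a defensin gene: of the 17 entries 7, mostly defensins, are not analysed here. Defa3, a defensin gene named after its value was seen, was under the filter (9.57 to 8.19, -0.08). Paneth cells sit among the stem cells at the crypt base and secrete antimicrobial proteins. Mmp7 is described above. Mptx1, a pentraxin gene, read 18.3 to 70.03 (1.33), and Ang4, an antimicrobial ribonuclease gene, read 4838 to 9855 (1.02; 1.05 on its other probe set). The lipase cofactor gene Clps read 574 to 1042 (0.84). Lyz1 for lysozyme, named after its value was seen, read 17233 to 23229.6 (0.43), the latter being the highest intensity on the 4OHT array. Whether a difference so near the top of the intensity range is understated was not tested. All 8 also lay above the all-gene median of 0.06.

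Of 13 goblet cell markers, 1 was 2-fold higher and 1 lower, with a median of 0.37. Spdef, a transcription factor of secretory maturation, read 58.6 to 163 (1.26), and Foxa3, another such factor, 225 to 447 (0.94). The products Tff3, a trefoil peptide (4783 to 8822, 0.88), and Muc2, the gel-forming mucin (352 to 629, 0.81; named after its value was seen), were higher by less than 2-fold. Zg16 was lower on all 3 of its probe sets (598 to 161 on the brightest; the others -1.65 and -0.81). Of the 13 markers, 8 lay above 0 and 5 below. Fcgbp, named after its value was seen, was the next lowest after Zg16 (281 to 186, -0.56). The factors and the mucin named here were thus higher, and the lectin was not alone in being lower.

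Enteroendocrine markers gave no 2-fold member among 18 and a median of -0.07. Neurog3, the factor that commits cells to this lineage (45.2 to 102, 0.95), and the neurotensin gene Nts (48.8 to 101, 0.86) were the highest, and Isl1 (41.5 to 21.7, -0.61) and the peptide YY gene Pyy (94.1 to 59.3, -0.55) the lowest. Tuft cell markers were dim and had a median of -0.30, with Il17rb, an interleukin receptor gene, at 48.8 to 24.9 (-0.66) and Rgs13 at 28.7 to 14.2 (-0.56). Over all measured members the medians were -0.10 and -0.25. Both turned positive with arrays set equal on the poly-A spike-ins (0.19 and 0.04).

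Among BMP and TGF-beta genes 1 of 19 was 2-fold higher and 1 lower, around a median of -0.01. Bmp2, a ligand made by differentiated epithelium, read 232 to 103 (-1.06), and Smad6 (36.7 to 12.8, -0.87) and Id2 (156 to 84.5, -0.77), which BMP signalling induces, were lower too. Named after their values were seen, Id1 (-0.52) and Id3 (-0.37) went the same way. The receptor gene Bmpr2 was higher (42.6 to 111, 1.12; 0.45 on its other probe set past the filter). Of the 19 members, those named here do not stand for the list. Its median over all 23 measured was -0.04, and 0.35 with arrays set equal on the poly-A spike-ins.

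The Notch ligand gene Jag1 read 28.9 to 75.9 (1.03), but its other probe set past the filter read 58.0 and 38.7 (-0.44). It was the single 2-fold member of 14 Notch and secretory fate genes, whose median was 0.17. Hes6, an antagonist of Hes1, read 265 to 502 (0.88), and Atoh1, the switch to secretory fate, was near level (35.7 to 41.6, 0.16; named after its value was seen). No EGF ligand, receptor or feedback gene reached 2-fold (16 genes, median 0.16); the largest values were those of Lrig1, a feedback inhibitor of the receptor (47.9 to 91.6, 0.75), and the ligand gene Hbegf (125 to 201, 0.63; -0.39 on its other probe set). In the Myc network Mycn was lowest (98.3 to 44.2, -0.93), followed by the antagonist gene Mxi1 (159 to 100.2, -0.59; 0.52 on its other probe set), while the repressor genes Mnt (0.58) and Mxd4 (0.58; other probe sets 0.29, 0.18 and -0.06) were higher; the median of 10 was -0.08, and 0.28 on the poly-A spike-ins.

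DNA replication genes were mostly higher by less than 2-fold. Of 27, 23 lay above 0, where 56.7% of all genes did, and 20 lay above the all-gene median of 0.06. The list median was 0.38. The helicase genes Mcm7 (709 to 1250.1, 0.80) and Mcm2 (233 to 389, 0.70) and the ribonucleotide reductase genes Rrm1 (74.1 to 134, 0.73; -0.04 on its other probe set past the filter) and Rrm2 (0.48, named after its value was seen) were higher. Pcna, the replication clamp gene, also named after its value was seen, was lower (502 to 379.9, -0.39). With the mean of all probe sets the median was 0.16. For mitosis genes the median of 22 was 0.04, from -0.71 for Ube2c (361 to 214), a ubiquitin-conjugating enzyme of mitotic exit, to 0.41 for the spindle motor gene Kif11 (other probe sets 0.26 and -0.16). Mki67, a general marker of cycling cells named after its value was seen, read 677 to 770.5 (0.18).

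Ribosome biogenesis genes had 20 of 23 above 0, none past 2-fold and a median of 0.33. Those 20 also lay above the all-gene median of 0.06. Heatr1 (97.2 to 169.8, 0.71; other probe sets -0.04 and -0.41), Dkc1 for the pseudouridine synthase dyskerin (208 to 344, 0.68) and Bop1 (61.6 to 102, 0.61) were highest, and Npm1 for nucleophosmin named after its value was seen, was lowest (1859 to 1317, -0.49). Among G1 cyclins and inhibitors Ccne1 for cyclin E1 was 2-fold higher on an x-type probe set, which can read several transcripts (27.98 to 85.5, 1.21), and level on the other (35.6 to 34.7, -0.03). On the same list Cdk4 read 173 to 303 (0.76) and Rb1 43.8 to 19.1 (-0.77). The tubulin genes Tubb2b (104 to 291, 1.35) and Tuba1a (233 to 603, 1.31), which belong to near-identical families, were the 2-fold members among 9.

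Of 16 p53 target genes, 2 were 2-fold higher and none lower, with a median of 0.26. Trp53inp1, a p53 cofactor gene, read 116 to 339 (1.43; 0.24 on its other probe set), and Plk2, a polo-like kinase gene, 55.6 to 176 (1.43; 0.09 on its other probe set). Cdkn1a for p21, named after its value was seen, was near level (625 to 547, -0.19). Among 15 Bcl2 family genes Bcl2l15 was alone past 2-fold, with the proapoptotic genes Bok (154 to 282, 0.81) and Bcl2l11 (342 to 559, 0.68) higher by less.

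No gene of the integrated stress response (16 genes, median -0.12), heat shock (9, 0.38), AP-1 and immediate early (14, 0.20) or tight junction (15, 0.36) lists reached 2-fold. Their extremes were Chac1, a glutathione-degrading enzyme gene, at 147 to 76.04 (-0.83), the chaperone gene Hsp90aa1 at 1194 to 2006 (0.74; other probe sets -0.19, -0.26 and 0.22), the nuclear receptor gene Nr4a1 at 33.3 to 71.4 (0.83), Cldn4 for a claudin at 282 to 522 (0.85) and Tjp1 for ZO-1 at 256 to 135 (-0.84). Ifitm3 (99.2 to 327) was the single 2-fold member of 17 interferon and antigen presentation genes (median 0.08). Because 4OHT binds oestrogen receptors, their response genes were listed too: none of 9 reached 2-fold, the median was -0.13, and Ctsd for cathepsin D was highest (158 to 257, 0.65). The receptor genes themselves, named after their values were seen, were dim, with Esr1 at 30.2 to 26.3 and Esr2 at 26.2 to 22.1. An effect of the drug itself was not tested, as no array is of 4OHT-treated organoids without the floxed alleles.

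A gene's probe sets often disagreed in size. Of 93 named genes with a further probe set past the filter, 25 had at least 1 of the opposite direction. Over 5797 genes with a further probe set past the filter, the 9822 further sets differed from the brightest by a median of 0.31, and 56.6% had the same direction. Among genes at least 2-fold higher, 83 of 115 further sets (72.2%) had the same direction and 10.4% were themselves 2-fold higher. Among genes at least 2-fold lower these were 79 of 100 and 19.0%. When all probe sets of a gene were averaged, 25 of the 84 named genes past 2-fold came under it, among them Nkd1 (0.51), Atg9b (0.95), Ptgs2 (0.85), Fn1 (0.80), Thbs1 (0.90), Rbms3 (0.82), Rassf10 (0.48), Cd44 (0.84) and Vegfa (-0.92). Genes such as Clu, Apoa1, Apoa4, Reg3b, Clec2h, Slc5a1 and Ang4, 2-fold on every probe set past the filter, rest on more than 1 reading.

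The arrays of day 6 are of the same treatments, and none is shared with the comparison at day 4. Of the 161 genes at least 2-fold lower at day 4, 158 (98.1%) were below 0 at day 6, against 50.5% of all genes, and 105 were again at least 2-fold lower (65.2%, where 2.97% of all genes were). Of the 132 genes at least 2-fold higher, 103 (78.0%) were above 0 at day 6, against 49.1% of all genes, and 27 were again 2-fold higher (20.5%, where 0.879% of all genes were). The median difference of the lower genes was -1.19 at day 4 and -1.25 at day 6, and that of the higher genes 1.15 and 0.42. Atg9b (2.15 at day 6), Clu (2.33), Mmp7 (2.69) and Ifitm3 (1.48) were among the higher genes that stayed past 2-fold, whereas Ccn2 (0.26), Fn1 (0.06), Ptgs2 (-0.076) and Lrrc26 (0.09) were near level. Whether the effect differed between the days was not tested.

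**Figure D5:**
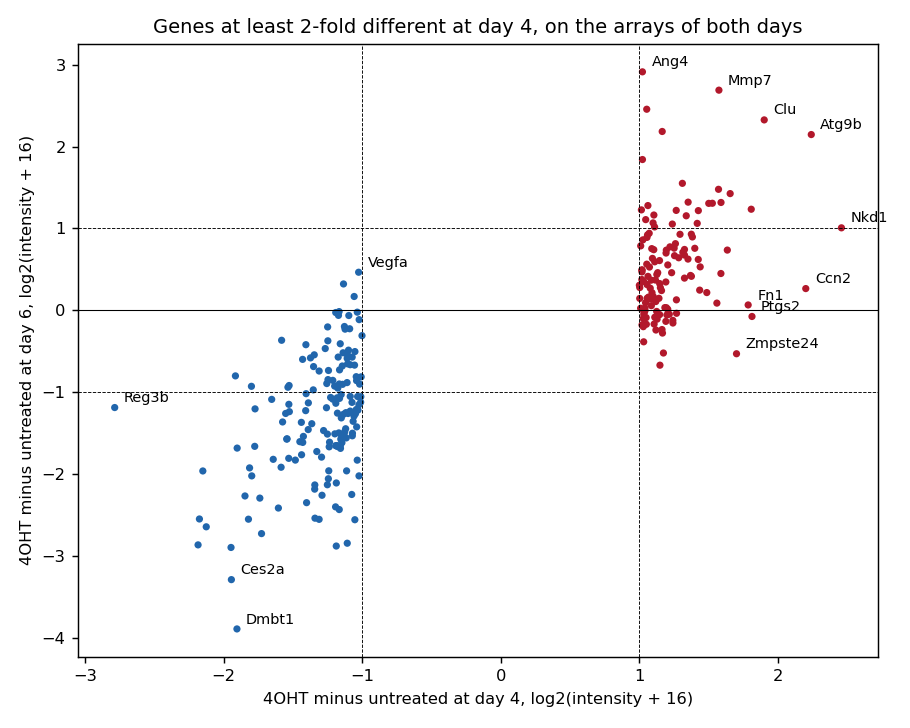
Difference at day 6 against difference at day 4 (each 4OHT minus untreated, log2(intensity + 16)) for the 293 genes at least 2-fold different at day 4; dashed lines mark 2-fold. Of the 161 lower genes (blue) 158 lie below 0 at day 6, and of the 132 higher genes (red) 103 lie above 0, with Clu, Mmp7 and Atg9b high on both days and Ptgs2 and Zmpste24 at or below 0 at day 6.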

How the data were processed

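RNA (100 ng per sample) was amplified and biotin-labelled from its 3' end and hybridized to arrays, per the labels' protocols. The authors deposited linear intensities, 1 per probe set and array; background correction, normalization, summarisation and detection calls are not given in the sources used here. The annotation gives 1 gene for 34958 of the 45101 probe sets and several for 932, and lacks 9211. Each gene took its probe set with the highest mean log2(intensity + 16) over the 4 arrays; the level filter is the median of all values, 20.9. With 1 array against 1, no test was run; a gene counts as higher or lower at 2-fold. The calculation was tested on simulated data.

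The 46 lists hold 753 genes, of which 699 were measured, 54 are not analysed here and 640 passed the filter; 22 were at least 2-fold higher and 52 lower. The members and lists were chosen with earlier results of these data known. Named genes are Apc, the 15 highest and 15 lowest genes past the filter, every list member at least 2-fold different and up to 4 members per list with the largest differences; 2 clone names were passed over, and others are marked. Promoters come from the RefSeq table on GRCm38.p6, and list members were matched by symbol. Alternatives were other filters, probe-set choices, scalings, pseudocounts and fold thresholds. Python 3.11.15, pandas 2.3.3, numpy 2.4.6 and matplotlib 3.10.9 were used.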

Additional observations from a re-analysis of the deposited data

Results flagged for a closer look

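Of the 84 genes named by the rule and at least 2-fold different at day 4, 5 had the opposite sign at day 6, and the difference between the days was not tested. Over all 202 named genes 21 had opposite signs, the other 16 from differences under 2-fold at day 4. Ptgs2 differed by 1.81 at day 4 and -0.076 at day 6. Zmpste24 differed by 1.70 and -0.53. Bmpr2 differed by 1.12 and -0.24. Jag1 differed by 1.03 and -0.39, and its probe sets disagreed at day 4. Vegfa was lower at day 4 (-1.02) and higher at day 6 (0.46).

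Probe sets outside the gene table also held differences. Of 4144 past the level filter that the annotation does not list, 17 were higher and 8 lower by 2-fold or more. Of 619 that name several genes, 3 were higher and 8 lower. With 1 array per group, the control level here is the untreated array itself.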

How the results depend on the processing

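The 132 genes higher and 161 lower became 133 and 150 with probe sets chosen from the day 4 arrays, 121 and 155 with the filter at the 75th percentile, 125 and 153 without x and s probe sets, 107 and 184 after quantile normalization, and 99 and 188 after subtracting the all-gene median, an alternative chosen after seeing the data. They became 57 and 103 when all probe sets of a gene were averaged, 954 and 52 scaled to the poly-A spike-ins, 637 and 62 scaled to the hybridization spike-ins, 437 and 402 at a pseudocount of 1, 33 and 45 at a pseudocount of 64, 1038 and 742 at 1.5-fold, and 12 and 22 at 3-fold. Of 84 named genes past 2-fold, 25 were no longer so under the probe-set mean, 40 at a pseudocount of 64, 27 and 26 under the spike-in scalings, and at most 4 under the others. The fatty acid synthesis median turned to -0.039 under the probe-set mean, and Ccne1 to -0.026 without x and s probe sets. Scaled to the poly-A spike-ins, medians turned positive for iron handling (0.13), enteroendocrine (0.19), tuft (0.037), glycolysis (0.052), fatty acid oxidation (0.26), respiratory chain (0.31), integrated stress response (0.32) and oestrogen response genes (0.17). Scaled to the hybridization spike-ins, they did so for iron handling (0.049), enteroendocrine (0.12), fatty acid oxidation (0.17), respiratory chain (0.21), integrated stress response (0.22) and oestrogen response genes (0.093). Smaller medians below 0 turned too, for BMP and TGF-beta, Myc partner, enterocyte transcription factor, mucosal defence, epithelial, endothelial and immune lists, 15 of 22 in all on the poly-A and 13 on the hybridization spike-ins. With the pseudocount, the poly-A scaling raised a gene by 0.12 to 0.45 and the hybridization scaling by 0.092 to 0.35, less where it was dim. No paired analysis was possible because each group has 1 array, and no replicate could be left out. Depth in the sense of counts does not apply to arrays; genes near the filter's intensity are limited by their signal over background, for which no detection calls were used.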

Other observations

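The single genes below lie outside the lists and were chosen for their values, so they show nothing about the pathways they belong to. Fabp6, the ileal bile acid carrier, read 344 to 92.8 (-1.73), and Slc51a, a subunit of the basolateral bile acid exporter, 77.00 to 28.2 (-1.07), beside their receptor gene Nr1h4 (-1.25). Other single genes at least 2-fold lower were the aldo-keto reductase genes Akr1c19 (139 to 46.7, -1.31) and Akr1c14 (46.2 to 11.4, -1.19), the glucuronosyltransferase gene Ugt2b36 (125 to 37.4, -1.40) and the microsomal transferase gene Mgst1 (528 to 222, -1.19). The calcium-binding protein gene S100g (289 to 112, -1.25) and the membrane mucin gene Muc3 (158 to 51.6, -1.36), both of absorptive cells, were at least 2-fold lower too. Mpc1, a pyruvate carrier subunit gene, read 185 to 72.8 (-1.18) and Dld, a dehydrogenase subunit gene, 77.1 to 28.3 (-1.07).

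Higher genes outside the lists included the lysosomal protease gene Ctsl (48.6 to 134, 1.22), the sorting receptor gene Igf2r (99.3 to 248, 1.19) and the heparan sulfate enzyme gene Hgsnat (12.4 to 49.3, 1.20). Others were the actin-binding protein genes Cald1 (21.6 to 63.97, 1.09), Cnn3 (493 to 1148, 1.19) and Enah (9.51 to 38.9, 1.11). The growth factor receptor gene Fgfr3 read 16.9 to 62.4 (1.25), the endothelin gene Edn1 269.8 to 708 (1.34), and Reg4, a lectin of deep crypt secretory cells, 129 to 309.7 (1.17).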
